A study of Mus musculus with 2 samples.

Results

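The genes described here are 28 mouse genes of cholesterol synthesis, uptake and handling, taken from a list of symbols; no measured value enters the rule, although the list was drawn up with earlier results of these data known. All 28 symbols matched 1 Ensembl gene each, out of 52636 Ensembl genes listed, and all 28 averaged at least 1 CPM over both libraries, with CPM a gene's reads per 1000000 reads in all genes listed. The KO library held pooled RNA from the livers of 4 mice lacking Gbp5 (GBP5-/-). The WT library held pooled RNA from the livers of 4 wild-type mice. All animals were C57BL/6, were 9 weeks old and had received D-galactosamine (GalN, 800 µg per g body weight) with lipopolysaccharide (LPS, 100 ng per g) 6 h earlier. GalN depletes uridine nucleotides in hepatocytes and sensitises the liver to LPS, a bacterial endotoxin, so both groups were injured livers. No untreated liver was analysed here, and the sources used here do not state the sex of the mice or how the allele was made. With 1 pooled library per genotype there is no replicate check and no p-value. Intervals in parentheses are exact 95% counting intervals of a ratio of CPM. They cover counting error only, and may understate it, since reads are not independent molecules. They compare these libraries rather than the genotypes.

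Hepatocytes make cholesterol from acetyl-CoA through mevalonate, isoprenoid pyrophosphates, squalene and lanosterol. The pathway is switched on by SREBP-2, the product of Srebf2, a membrane-bound transcription factor of the endoplasmic reticulum. Its escort protein SCAP carries it to the Golgi for cleavage when sterols are scarce, and the INSIG proteins hold the complex back when sterols are plentiful. Sterol-loaded cells instead activate the liver X receptors, which promote efflux through ABCA1 and degradation of lipoprotein receptors through the ubiquitin ligase MYLIP.

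SREBP-2 binds sterol regulatory elements close to the starts of its target genes, usually beside CCAAT boxes bound by NF-Y, so the upstream sequence of the enzyme gene with the highest KO to WT ratio and that of the regulator gene itself are shown. RefSeq promoter windows of GRCm38.p6 were found for 22 of the 28 genes, and not for Fdps, Fdft1, Sqle, Stard4, Soat2 and Scarb1. The core TCACNCCA, searched on both strands in the 250 bases before each start, was found in 3 of these 22 genes (13.6%), namely Srebf2, Hmgcs1 and Msmo1. It was found in 4.20% of 27025 genes with a window of that length, and in 3.67% of their 32851 windows. Both sequences read 5′ to 3′ on the plus strand, with the match in capitals, and that of Srebf2 stops at the first start annotated in GENCODE.
Hmgcs1 (chr13:119690101-119690350): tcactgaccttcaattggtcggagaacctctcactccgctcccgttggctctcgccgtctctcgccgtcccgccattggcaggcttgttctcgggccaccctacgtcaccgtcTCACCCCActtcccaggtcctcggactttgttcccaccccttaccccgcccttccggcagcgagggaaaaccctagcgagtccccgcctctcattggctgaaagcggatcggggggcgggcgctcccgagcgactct
Srebf2 (chr15:82147019-82147180): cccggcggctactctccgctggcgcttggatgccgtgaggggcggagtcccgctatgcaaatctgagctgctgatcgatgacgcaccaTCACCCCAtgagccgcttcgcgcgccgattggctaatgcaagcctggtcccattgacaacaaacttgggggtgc
The match lies 137 to 130 bases before the RefSeq start of Hmgcs1 and 162 to 155 bases before that of Srebf2. In Msmo1 the match is TCACTCCA, 177 to 170 bases before the RefSeq start. There 214 bases of the window, the match among them, lie inside the gene as annotated in GENCODE, so that match is upstream of the RefSeq start only. CCAAT, which does not overlap the core in either printed sequence, was found on either strand in 19 of the 22 genes (86.4%), against 37.5% of all genes with a window. The GC box GGGCGG, searched in the same way, was found in 20 of the 22 (90.9%), against 35.4% of all genes. The E box CACGTG was found in 6 of the 22 (27.3%), against 6.86% of all genes, so an excess of this kind was not limited to CCAAT. The genes behind these shares were not matched to the members by gene type or by base content of the windows. A match is a description of letters, not a binding site, and on the plain scale the 3 genes with the core did not share a direction: Hmgcs1 was higher in KO, Srebf2 was lower in KO, and the counting interval of Msmo1 spanned 1. The direction of Srebf2 did not hold once GC content and exon length were matched, as given with its values.

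As a group the cholesterol genes were nearly level between the libraries. Their reads summed to 2688 CPM in KO and 2684 CPM in WT, and those of the 18 synthesis enzymes to 1299 CPM in KO and 1285 CPM in WT, a ratio of 1.01. By a rule of size alone, 2 members (7.14%) were at least 1.5-fold higher in KO, namely Stard4 and Hmgcs1, against 10.9% of the 13453 genes measured. A further 2 members (7.14%), Scap and Mylip, were at least 1.5-fold lower in KO, against 24.3% of genes measured. The remaining 24 lay within 1.5-fold. The median log2 ratio of KO to WT was 0.04 for the members and -0.07 for all genes measured, and the members' median turned to -0.02 when libraries were scaled to an equal sum of length-scaled counts and to -0.07 when Fdps and Acat2 were summed with their near-identical copies. The middle 50% of members spanned -0.27 to 0.22, and that of all genes -0.57 to 0.30. The counting interval lay above 1 for 9 members, below 1 for 12 and spanned 1 for 7. The same count was not made over all genes, so these numbers are not read as a result about the members. Such intervals narrow with the number of reads, and that of Ebp lay below 1 at only 1.06-fold lower. The share of members past 1.5-fold upward was thus close to that of all genes, and the share past 1.5-fold downward was smaller than that of all genes, as counts of 2 members each.

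**Figure D1:**
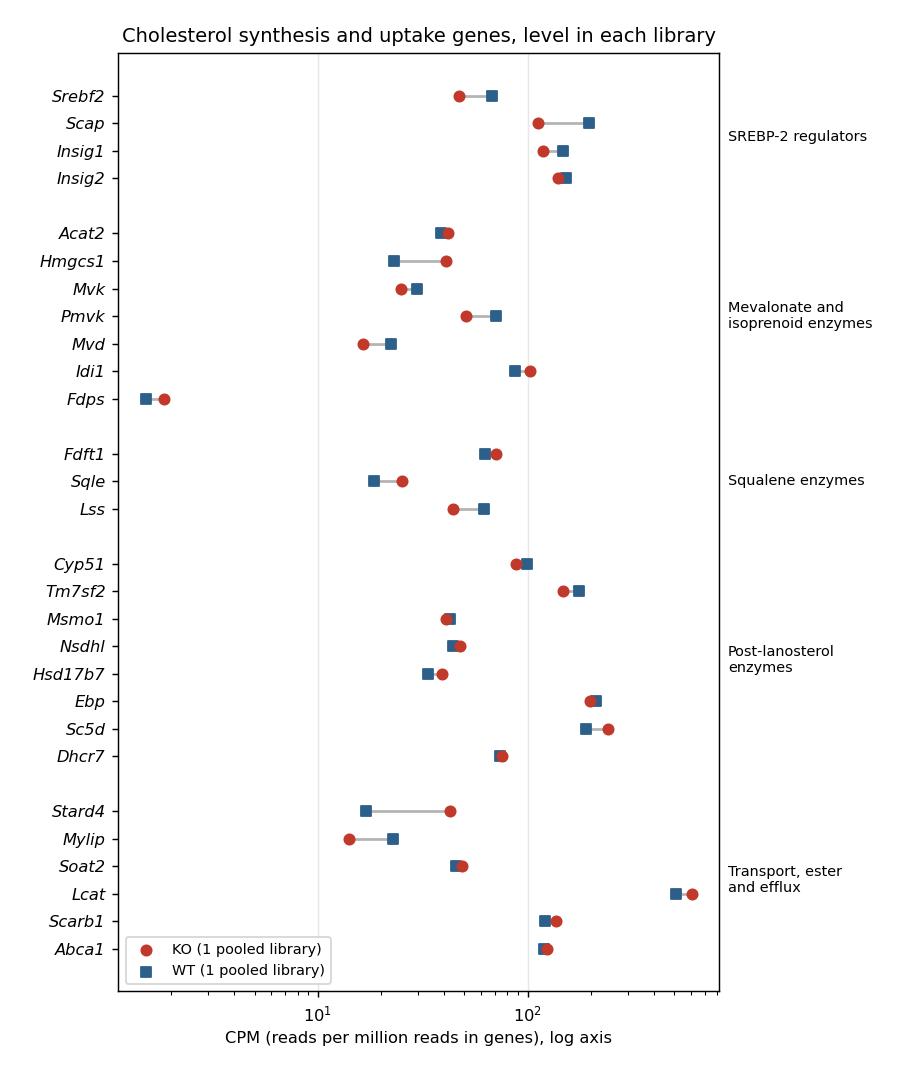
Level of each of the 28 genes in CPM on a log axis, with the KO library as red circles and the WT library as blue squares, 1 pooled library each and no error bar. Levels run from under 2 CPM for Fdps to 605 CPM in KO and 510 CPM in WT for Lcat, and the widest gaps are those of Stard4, Hmgcs1 and Scap.

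GC content has to be read beside these ratios. Over 12266 protein-coding genes measured, Spearman's rho between the log2 ratio and the GC content of a gene's exons was -0.47, a description across genes that share both libraries. It was -0.46 over the 28 members, whose GC content ran from 41.5% to 59.1%. The median ratio was 1.24 in the twentieth of genes lowest in GC, while in the highest twentieth genes were 2.03-fold lower in KO. A GC-relative ratio, the ratio divided by the median ratio of protein-coding genes in the same of 20 GC bins, is therefore given for each group of genes, and for single genes where the reading differs between the scales. On that scale the members' median log2 value was 0.05, that of all genes was 0.01, and 17 of 28 members lay above 0 (60.7%, against 50.6% of all genes). Past 1.5-fold were 3 members higher in KO (Stard4, Lcat and Hmgcs1), against 13% of all genes, and 1 lower in KO (Mylip), against 16.7%. The direction differed between the scales for 4 members, Mvk, Mvd, Tm7sf2 and Abca1. When genes were matched on exon length as well as GC content, the members past 1.5-fold were Stard4, Hmgcs1, Fdft1 and Scarb1 upward and Mylip downward, and Lcat was at a log2 value of 0.29. That setting also turned Srebf2 to 0.36, against a plain log2 ratio of -0.53. A genotype difference tied to GC content would also be lost on the GC-relative scale, and the part of GC content in the plain ratios was not tested.

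The 4 regulators of SREBP-2 lay below 1 in KO on the plain and GC-relative scales, while with exon length matched too Srebf2 turned to a log2 value of 0.36 and Scap was at -0.09. Scap (ENSMUSG00000032485, GRCm38 chr9:110333288-110384950, plus strand), the escort protein, had 1768 reads in KO and 3894 in WT, or 112 CPM in KO and 196 CPM in WT. It was 1.75-fold lower in KO (1.65 to 1.85), the lowest ratio of all 28 genes. Srebf2 (chr15:82147181-82205379, plus strand), the transcription factor, had 740 reads in KO and 1343 in WT, or 47.0 and 67.6 CPM, and was 1.44-fold lower (1.31 to 1.58). Both genes are rich in GC, at 54.7% and 55.4%, and genes of like GC had a median log2 ratio of -0.47 in both of their bins. Relative to those genes Scap was 1.26-fold lower (1.19 to 1.33) and so was short of 1.5-fold, and Srebf2 had a ratio of 0.961 with an interval of 0.877 to 1.05. A higher ratio was found in 69.7% of the 535 coding genes in the GC bin of Scap and in 53.5% of the 535 in that of Srebf2.

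The INSIG genes, which encode the sterol-sensitive retention proteins, were lower in KO by smaller amounts. Insig1, itself a target of SREBP-2, had 119 CPM in KO and 147 CPM in WT, 1.24-fold lower (1.17 to 1.31). Insig2, which in mouse liver answers to insulin and fasting rather than to SREBP-2, had 140 CPM in KO and 152 CPM in WT, 1.09-fold lower (1.03 to 1.15). Both have GC content near the middle of the range, and the GC-relative values were 1.31-fold lower (1.24 to 1.39) for Insig1 and 1.14-fold lower (1.08 to 1.20) for Insig2. Among the regulators the order of the plain ratios was thus Scap, Srebf2, Insig1 and Insig2 from the lowest up, whereas on the GC-relative scale Insig1 was lowest and Srebf2 highest.

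**Figure D2:**
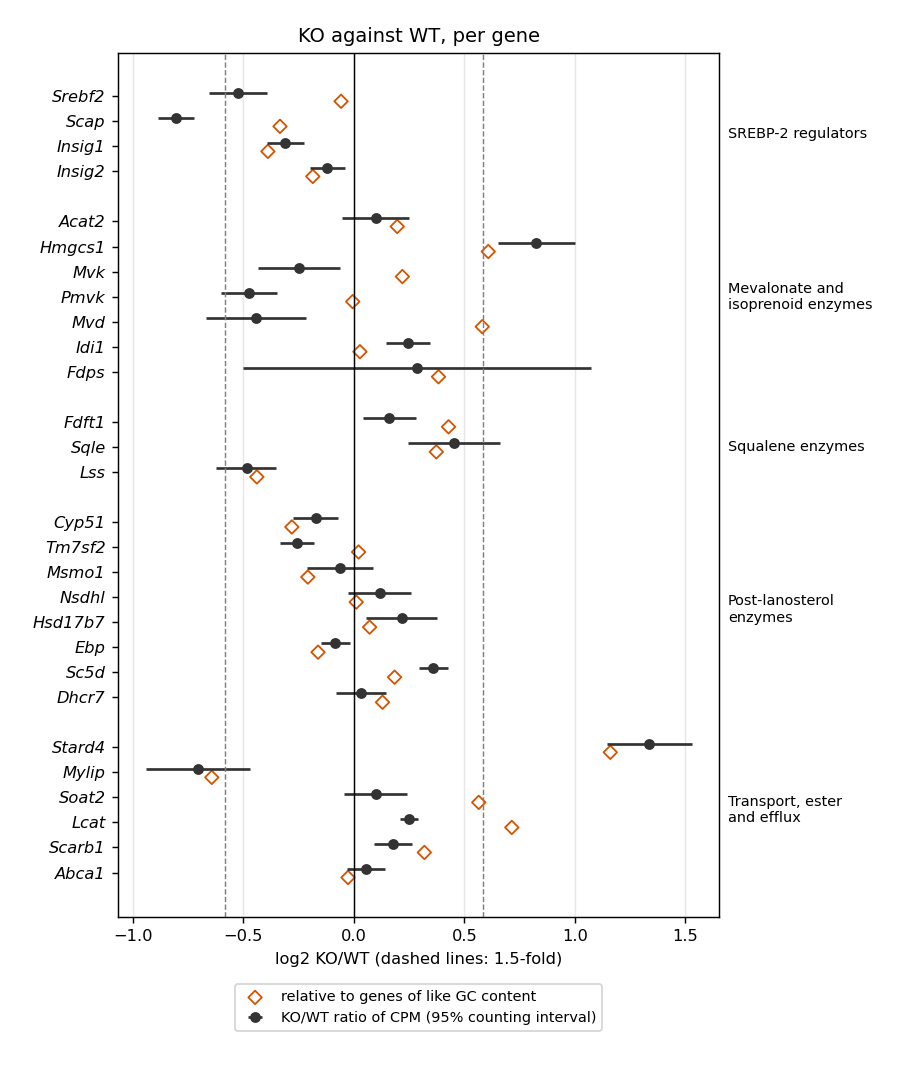
The log2 ratio of KO to WT for each gene as black circles with 95% counting intervals, and the same relative to genes of like GC content as open orange diamonds; dashed lines mark 1.5-fold. Stard4 and Hmgcs1 lie beyond the upper line on both scales, Mylip beyond the lower line on both, Scap beyond it on the plain scale alone and Lcat beyond the upper line on the GC-relative scale alone.

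Of the 7 genes that lead from acetyl-CoA to farnesyl pyrophosphate, Hmgcs1 alone passed 1.5-fold. It encodes the cytosolic synthase that makes HMG-CoA, the substrate of the rate-limiting reductase. Hmgcs1 (chr13:119690379-119708260, plus strand) had 645 reads in KO and 459 in WT, or 41.0 CPM in KO and 23.1 CPM in WT, a ratio of 1.77, with a lower bound of 1.57. Relative to genes of like GC the ratio was 1.52 (1.35 to 1.72), and 6.36% of the 535 coding genes in its GC bin had a higher ratio. Idi1, the isomerase that converts isopentenyl to dimethylallyl pyrophosphate, had 103 CPM in KO and 86.7 CPM in WT. Its ratio of 1.19 (1.11 to 1.27) became 1.02 (0.952 to 1.09) relative to genes of like GC, so it sat on the level of its GC class.

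The 3 enzymes that phosphorylate and decarboxylate mevalonate were lower in KO on the plain scale, and on the GC-relative one none had an interval below 1. Mevalonate kinase, Mvk, had 24.9 CPM in KO and 29.5 CPM in WT, 1.19-fold lower (1.04 to 1.35). Phosphomevalonate kinase, Pmvk, had 51.0 CPM in KO and 70.9 CPM in WT, 1.39-fold lower (1.27 to 1.52). Mevalonate diphosphate decarboxylase, Mvd, had 16.4 CPM in KO and 22.3 CPM in WT, 1.36-fold lower (1.16 to 1.59). These are the members with GC content of 54.7% to 59.1% among the enzymes, and their GC-relative ratios were 1.16 (1.02 to 1.33) for Mvk, 0.996 (0.912 to 1.09) for Pmvk and, just short of 1.5-fold, a log2 value of 0.58 for Mvd, which was 0.01 with exon length matched as well. The decarboxylase is thus the member whose reading moved furthest with GC content.

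Acat2 and Fdps carry values that near-identical genes make uncertain. Acat2, the cytosolic thiolase that joins acetyl-CoA units, had 654 reads in KO and 770 in WT, a ratio of 1.07 (0.964 to 1.19). Its relative Acat3, alike over 1477 bases at 98.5% identity, had 1338 reads in KO and 2117 in WT, and Acat2 and Acat3 summed were 1.15-fold lower in KO (1.09 to 1.22). Fdps, the farnesyl pyrophosphate synthase, had only 29 reads in KO and 30 in WT, or 1.84 and 1.51 CPM, a ratio of 1.22 (0.706 to 2.10). The processed pseudogene Gm3571, at 98.9% identity over 1062 bases, had 371 reads in KO and 635 in WT, and Gm5873 had 123 in KO and 254 in WT. Fdps also shares 26.7% of its exonic bases with the coding gene Gm43738 on the same strand, which had 0 reads in both libraries. Together the 6 genes alike to Fdps, itself included, had 524 reads in KO and 919 in WT, 1.39-fold lower in KO (1.25 to 1.55). The read count of Fdps alone and that of its sequence family therefore gave different readings. Which of these genes the reads came from, and how reads in shared bases were counted, was not tested.

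The enzymes that make squalene and close the ring went in different directions. Fdft1, squalene synthase, had 70.4 CPM in KO and 63.0 CPM in WT, a ratio of 1.12 (1.03 to 1.21). Sqle, squalene epoxidase and a second slow step of the pathway, had 398 reads in KO and 367 in WT, or 25.3 CPM in KO and 18.5 CPM in WT, a ratio of 1.37 (1.18 to 1.58). After Hmgcs1 this was the next highest ratio of the 18 enzymes, and relative to genes of like GC it was 1.29, a log2 value of 0.37. Lss, lanosterol synthase, which follows it, had 44.0 CPM in KO and 61.6 CPM in WT, 1.40-fold lower (1.27 to 1.54), and 1.36-fold lower (1.23 to 1.49) relative to genes of like GC. The GC-relative ratio of Fdft1 was 1.35 (1.24 to 1.46). Fdft1 shares 18.3% of its exonic bases with Ctsb on the other strand, which had 1118 CPM in KO and 1198 CPM in WT, and the sources used here do not state whether counting used strand.

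The 8 enzymes that turn lanosterol into cholesterol all lay within 1.5-fold, and they summed to 880 CPM in KO and 870 CPM in WT. The most abundant were Sc5d and Ebp. Sc5d, the lathosterol desaturase, had 242 CPM in KO and 189 CPM in WT, a ratio of 1.28 (1.23 to 1.34), the highest of the 8. Ebp, the sterol isomerase also known as emopamil-binding protein, had 199 CPM in KO and 211 CPM in WT, 1.06-fold lower (1.01 to 1.11). Hsd17b7, a ketoreductase of the demethylation complex, had 39.0 CPM in KO and 33.6 CPM in WT, a ratio of 1.16 (1.04 to 1.30). Its partners in removing the methyl groups at carbon 4 had counting intervals that spanned 1 on the plain scale. Msmo1, the oxidase, had 40.9 CPM in KO and 42.7 CPM in WT, a ratio of 0.957 (0.862 to 1.06), and a GC-relative ratio of 0.865 (0.780 to 0.960). Nsdhl, the decarboxylating dehydrogenase, had 47.7 CPM in KO and 43.9 CPM in WT, a ratio of 1.08 (0.983 to 1.20).

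Both enzymes that act first on lanosterol were slightly lower in KO. Cyp51, the demethylase at carbon 14, had 87.6 CPM in KO and 98.8 CPM in WT, 1.13-fold lower (1.05 to 1.21). Tm7sf2, the sterol reductase that follows, had 148 CPM in KO and 177 CPM in WT, 1.19-fold lower (1.13 to 1.26). Tm7sf2 shares 12.1% of its exonic bases with Vps51 on the same strand, and its GC-relative ratio was 1.01 (0.963 to 1.07). Dhcr7, the reductase of the last step of one branch, had 75.5 CPM in KO and 73.8 CPM in WT, a ratio of 1.02 (0.947 to 1.10). Relative to genes of like GC the 8 enzymes spanned log2 values from -0.28 for Cyp51 to 0.18 for Sc5d. The late part of the pathway was therefore the most even part, with no member as far from 1 as Hmgcs1, Sqle or Lss on either scale.

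The genes for moving, storing and exporting cholesterol held both the highest and the second lowest ratio of all members. Stard4, a cytosolic sterol carrier and a target of SREBP-2, had 674 reads in KO and 337 in WT, or 42.8 CPM in KO and 17.0 CPM in WT. The ratio was 2.52 (2.21 to 2.88), and 2.23 (1.96 to 2.55) relative to genes of like GC. In its GC bin 1.31% of 534 coding genes had a higher ratio. Mylip, the ubiquitin ligase that marks lipoprotein receptors for degradation and a target of the liver X receptors, had 221 reads in KO and 454 in WT, or 4.34 RPKM (CPM per kilobase of exon) in KO and 7.07 RPKM in WT. It was 1.63-fold lower in KO (1.38 to 1.92) and 1.56-fold lower (1.33 to 1.84) relative to genes of like GC. In the GC bin of Mylip 85.0% of 534 coding genes had a higher ratio, so the remainder were as low or lower. Abca1, the efflux transporter that is a target of the same receptors, had 124 CPM in KO and 119 CPM in WT, and its ratio of 1.04 had an interval of 0.978 to 1.10.

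The plasma and membrane genes of cholesterol transport leaned the other way from Mylip. Lcat, the plasma enzyme that esterifies cholesterol on high-density lipoprotein, was the most abundant member, with 605 CPM in KO and 510 CPM in WT, a ratio of 1.19 (1.15 to 1.22). It is rich in GC, at 55.5%, and its GC-relative ratio was 1.64 (1.60 to 1.69), past 1.5-fold on that scale and not on the plain one, nor with exon length matched as well. In the GC bin of Lcat 11.4% of 535 coding genes had a higher ratio. Scarb1, the receptor for selective uptake from high-density lipoprotein, had 136 CPM in KO and 121 CPM in WT, a ratio of 1.13 (1.07 to 1.20). Soat2, the hepatocyte and enterocyte enzyme that esterifies cholesterol inside cells, had 48.7 CPM in KO and 45.5 CPM in WT, a ratio of 1.07 (0.971 to 1.18). Relative to genes of like GC the ratio was 1.25 (1.18 to 1.32) for Scarb1 and 1.48 (1.34 to 1.63) for Soat2.

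**Figure D3:**
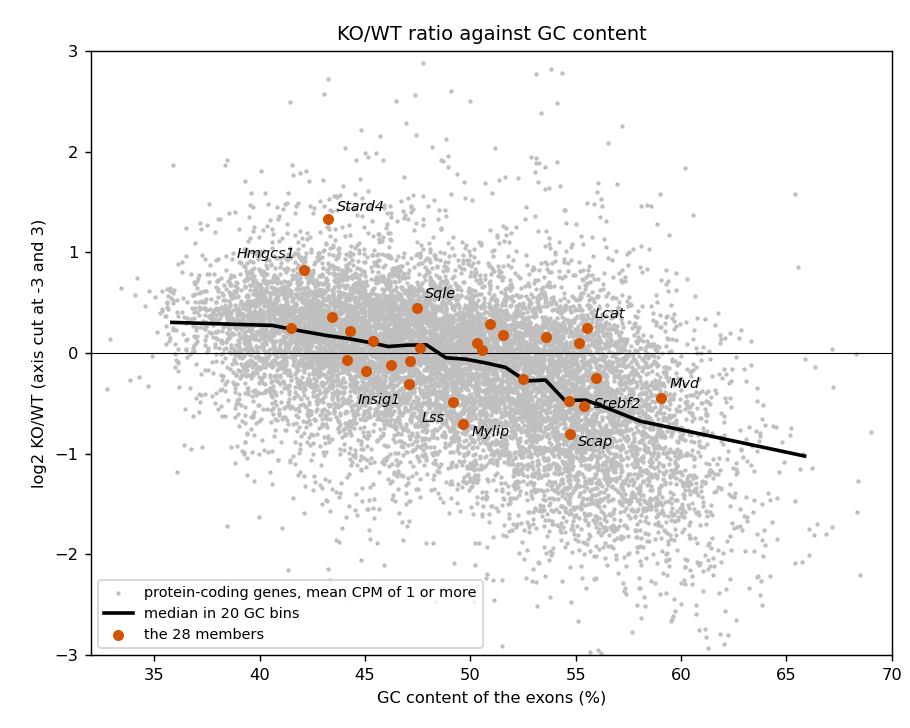
The log2 ratio of KO to WT against the GC content of a gene's exons, for protein-coding genes averaging 1 CPM or more (grey), with the median in 20 GC bins (black line) and the 28 members (orange). The line runs from 0.30 at low GC to -1.02 at high GC; Srebf2 lies close to it, whereas Stard4, Hmgcs1 and Lcat lie above it and Mylip and Lss below it.

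Per kilobase of exon the order of the genes was much the same in both libraries. Lcat led with 451 RPKM in KO and 380 RPKM in WT, followed by Ebp with 86.2 RPKM in KO and 91.3 RPKM in WT. At the low end stood Fdps, with 0.438 RPKM in KO and 0.359 RPKM in WT. Hmgcs1 ranked 19 of 28 in KO and 25 in WT, Stard4 ranked 21 in KO and 27 in WT, and Scap ranked 15 in KO and 8 in WT.

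Lists of neighbouring lipid genes were read the same way, by counts and medians of plain log2 ratios, beside 10.9% of all genes past 1.5-fold upward and 24.3% downward; on the GC-relative scale the shares of all genes were 13% and 16.7%. A list of 18 genes covered fatty acid and triglyceride synthesis, with Pnpla3 of the lipid droplet among them. Of these, 8 lay past 1.5-fold upward in KO (44.4%) and 1 downward. The list's median was 0.47, or 0.69 relative to genes of like GC, against 0.07 and 0.10 for the 18 sterol enzymes. On the GC-relative scale 12 of its genes were past 1.5-fold upward and 1 downward. Its highest genes were Pnpla3, a lipid droplet protein, with 21.9 CPM in KO and 2.37 CPM in WT and a ratio of 9.26 (6.81 to 12.8), and Lpin1, a phosphatidate phosphatase, at 2.15 (2.05 to 2.25). The lowest were Mlxipl, a carbohydrate-responsive transcription factor, 2.21-fold lower in KO (2.14 to 2.29), and Acacb, the mitochondrial acetyl-CoA carboxylase, 1.39-fold lower (1.30 to 1.49). The direction of Acacb turned relative to genes of like GC, with a ratio of 1.06 (0.988 to 1.13). The sister gene of Srebf2 in this list, Srebf1, had 109 CPM in KO and 105 CPM in WT, a ratio with an interval of 0.970 to 1.10, and its GC-relative ratio was 1.65 (1.55 to 1.76), past 1.5-fold on that scale.

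The 12 genes of SREBP cleavage and of sterol-linked protein degradation had a median of -0.22, with 3 past 1.5-fold downward in KO (25%, close to the 24.3% of all genes) and none upward. These were Syvn1, a ubiquitin ligase of the endoplasmic reticulum, 1.76-fold lower (1.65 to 1.87), Rnf145, a sterol-sensing ligase, 1.56-fold lower (1.34 to 1.82), and Erlin2, 1.53-fold lower (1.30 to 1.82). The highest were the ligase gene Rnf139, at a ratio of 1.27, and Erlin1, at 1.09. Relative to genes of like GC the list's median was -0.02 and 2 genes were lower, Rnf145 and Erlin2, while Syvn1 was at -0.14 and Erlin1 at -0.02.

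Listed targets and partners of the liver X receptors, members left out, split both ways on the plain scale. They leaned upward in KO on the GC-relative one. Of 11 genes, 3 lay past 1.5-fold upward in KO and 3 downward, and the median was 0.03, a value that was -0.03 with an equal sum of length-scaled counts and 0.36 relative to genes of like GC. On the GC-relative scale 4 were past 1.5-fold upward and 1 downward, and 9 of 11 lay above 0 (81.8%, against 50.6% of all genes). The members Mylip and Abca1, targets of the same receptors but not in this list, were at -0.64 and -0.03 on that scale. The sterol exporter genes of the bile canaliculus were among the higher ones: Abcg5 had 46.0 CPM in KO and 24.2 CPM in WT, a ratio of 1.90 (1.69 to 2.14). Its partner Abcg8 had 46.4 CPM in KO and 29.2 CPM in WT, a ratio of 1.59 (1.42 to 1.78), and Nceh1, a cholesterol ester hydrolase, had a ratio of 1.59 (1.35 to 1.88). The lower ones were Arl4c, 4.29-fold lower in KO (3.01 to 6.26), the receptor gene Nr1h2, 2.02-fold lower (1.84 to 2.22), and the macrophage exporter gene Abcg1, 1.52-fold lower (1.29 to 1.80). Relative to genes of like GC, Nr1h2 was at 0.01, Nceh1 at 0.53, Abcg1 at -0.47 and Arl4c at -2.04.

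Of 13 genes of the isoprenoid branches, 1 lay past 1.5-fold upward in KO and 1 downward, and the median was 0.13, or -0.03 relative to genes of like GC, where 3 were past 1.5-fold upward and 1 downward. Nus1, a subunit of the dolichol-forming transferase, had 54.6 CPM in KO and 114 CPM in WT, 2.08-fold lower (1.92 to 2.26), and Icmt, which methylates prenylated proteins, was 1.46-fold lower (1.32 to 1.63). Pdss1 and Fntb were the highest, at ratios of 1.56 (1.06 to 2.30) on 63 reads in KO and 51 in WT for Pdss1, and 1.48 on 60 reads in KO and 51 in WT for Fntb. GC-relative log2 values were 0.42 for Pdss1, 0.84 for Fntb, -0.08 for Icmt and -1.28 for Nus1. Of 14 genes of sterol trafficking, 1 was higher and 1 lower, with a median of 0.06, or -0.03 relative to genes of like GC. Gramd1a, a sterol carrier of contact sites between endoplasmic reticulum and plasma membrane, had 32.1 CPM in KO and 101 CPM in WT, 3.15-fold lower (2.85 to 3.48), and Stard3 was 1.48-fold lower (1.32 to 1.67), with GC-relative log2 values of -1.19 for Gramd1a and -0.02 for Stard3. Osbpl9 had a ratio of 1.57 (1.45 to 1.70) and the lysosomal lipase gene Lipa of 1.29 (1.22 to 1.38).

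Of 14 genes of bile acid synthesis 13 were measured, and Hsd3b7 had 0 reads in both libraries. By sampling alone that allows up to 0.190 CPM in KO and 0.151 CPM in WT. Whether the counting left out reads of Hsd3b7 was not tested, so its level in these livers is not known. Of those measured, 2 lay past 1.5-fold upward in KO and 1 downward, and the median of 0.01 was -0.05 with an equal sum of length-scaled counts. On the GC-relative scale, 4 were past 1.5-fold upward and 1 downward, Cyp7a1 was at -0.92 and Cyp8b1 at -0.08. Cyp7a1, the rate-limiting hydroxylase, had 23.4 CPM in KO and 35.8 CPM in WT, 1.53-fold lower (1.35 to 1.74), and Cyp8b1, which directs synthesis to cholic acid, was 1.46-fold lower (1.34 to 1.59). Cyp39a1, an oxysterol hydroxylase, had 29.1 CPM in KO and 9.97 CPM in WT, a ratio of 2.92 (2.47 to 3.47). Baat, the bile acid conjugating enzyme, had a ratio of 1.63 (1.53 to 1.74).

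**Figure D4:**
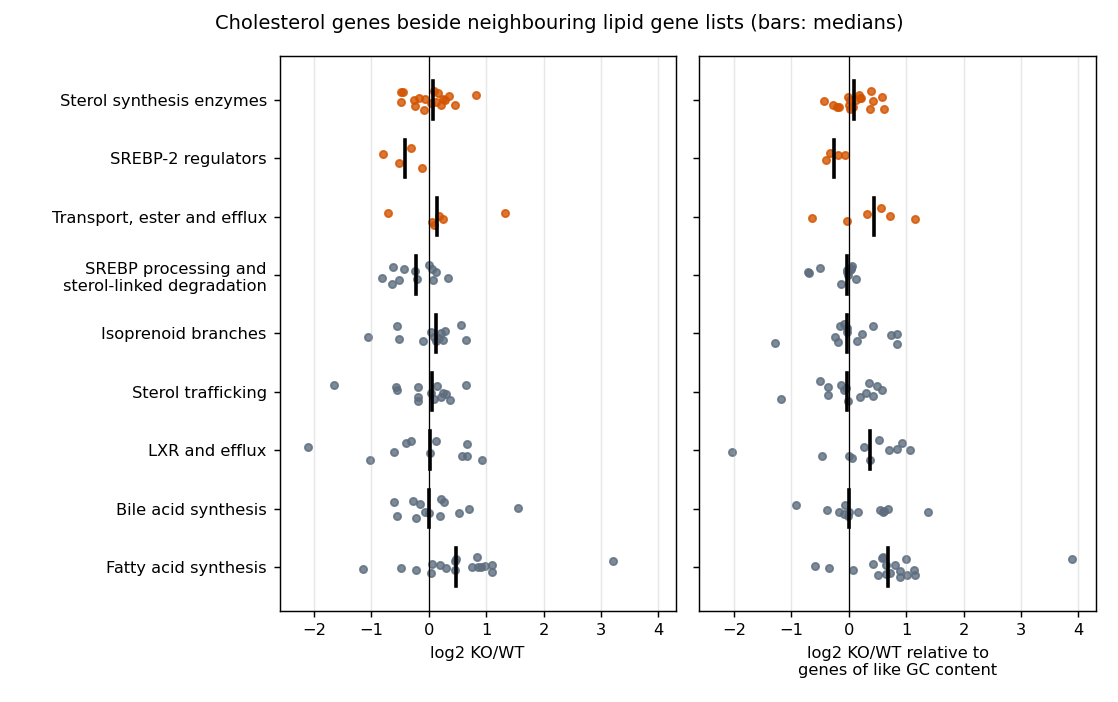
The log2 ratio of KO to WT of each measured gene, 1 point per gene, in the cholesterol gene groups (orange) and in neighbouring lipid lists (grey), on the plain scale at left and relative to genes of like GC content at right; bars are medians. The bar of the sterol enzymes lies at 0.07 and 0.10. That of the list labelled fatty acid synthesis, which also holds triglyceride genes, lies at 0.47 and 0.69.

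The libraries held 15750875 reads in genes for KO and 19864848 for WT, and 3 reads, the floor, equal 0.190 and 0.151 CPM. Gbp5, the targeted gene, had 873 reads in KO and 3211 in WT, 2.92-fold lower in KO (2.71 to 3.15), and which exons the allele removes was not known from the labels. Of 10 hepatocyte markers 9 were above 0 in log2 ratio (90%, against 45.5% of all genes), and 3 were past 1.5-fold upward (30%, against 10.9%). Their median was 0.39, or 0.54 relative to genes of like GC. They summed to 108866 CPM in KO and 70503 CPM in WT, of which Alb alone held 69250 CPM in KO and 38384 CPM in WT. All 10 Kupffer cell markers were below 0, with sums of 601 CPM in KO and 1479 CPM in WT, as were all 8 T and NK cell markers measured, with sums of 38.5 and 87.8 CPM over 9 listed. Cholangiocyte markers summed to 306 CPM in KO and 171 CPM in WT, endothelial markers to 450 and 569 CPM, and neutrophil markers to 320 and 402 CPM. Of 6 neutrophil markers measured 3 were above 0 and 3 below, with a median of -0.08. Of 6 endothelial markers 1 was above 0 and 5 below, with a median of -0.15. Medians relative to genes of like GC were -0.73 for Kupffer cell, -0.88 for T and NK cell and 1.03 for cholangiocyte markers. They were -0.05 for endothelial and -0.23 for neutrophil markers. No marker was at 0 in either library. In bulk RNA fewer cells of a type and less RNA per cell cannot be told apart, and the part of these differences in the ratios of the cholesterol genes was not tested.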

How the data were processed

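Liver mRNA was measured in 2 libraries, 1 KO and 1 WT, each a pool of 4 livers per the labels' design text. The submitters' processing notes name TopHat2, HTSeq 0.6.1 and the GRCm38 genome. They do not name an annotation release or say whether counting used strand. The deposited values, although named for FPKM, are whole-number read counts: totals differ between libraries, and 2982 genes in KO and 2707 in WT have 1 read. They were taken as raw counts. Entries without an Ensembl gene (209 of 52845, with 0.496% of counts in KO and 0.652% in WT) were left out, and 147 Ensembl genes not found in GENCODE M21 kept their reads in the totals and were not compared.

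CPM was computed over all Ensembl genes, and the ratio of KO to WT used no pseudocount, with 0 reads set to the floor of 3. Genes averaging 1 CPM or more were measured, and 1.5-fold was the rule of size. Intervals are Clopper-Pearson intervals conditional on the summed reads. GC content and exon length came from GENCODE M21 transcripts, and GC bins from coding genes with 100 reads or more. Copies were alignments of 500 bases or more at 95% identity or more (blastn 2.17.0); overlaps used bedtools 2.31.1. RPKM used the union of exons. Other tools were Python 3.11.15, numpy 2.4.6, pandas 2.3.3, scipy 1.17.1, statsmodels 0.14.6, and edgeR 4.0.16 for TMM factors alone; steps were tested on simulated counts.

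The members and lists were chosen with earlier results of these data known. Named were all members, Gbp5 and the 2 highest and 2 lowest measured genes of each lipid list. Erlin2, Abcg8, Abcg1, Srebf1 and Alb were named after their values were seen, and marker lists are given as sums, counts and medians. Alternatives were other scalings, pseudocounts of 0.5 and 1 CPM, no filter or 5 CPM, and GC corrections; sums over near-identical copies were added after seeing the data.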

Additional observations from a re-analysis of the deposited data

How the results depend on the processing

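The counts of members past 1.5-fold, 2 in each direction, held under median ratio, TMM, equal sum of length-scaled counts and totals without mitochondrial genes, with 0.5 or 1 CPM added, with no filter and at 5 CPM. The genes were Hmgcs1 and Stard4 above and Scap and Mylip below in each of these. With the GC-relative ratio in 20 bins the lower count was 1, and with GC and length in 10 by 4 bins it was also 1 and the higher count was 4, with Fdft1 and Scarb1 in and Lcat, past 1.5-fold with GC alone, out. The last setting changes the GC bins and adds exon length at once, and the cause of its moves was not tested. The members' median log2 ratio ran from -0.07, with Fdps and Acat2 summed with their copies, to 0.08, with GC and length, and that of the enzymes from -0.07 to 0.10, so neither has a direction that holds under all settings. The GC-relative median ran from 0.02 to 0.08. With GC and length Srebf2 turned to 0.36, Mvk to 0.09, Mvd to 0.01, Tm7sf2 to 0.09, Idi1 to -0.01, Nsdhl to -0.15, Syvn1 to 0.42, Stard3 to 0.12, Acacb to 0.40 and Erlin1 to -0.03. With the GC-relative ratio Mvk, Mvd, Tm7sf2, Abca1, Erlin1 and Acacb turned, as did Nr1h2, to 0.0070. Dhcr7 and Abca1 turned to -0.03 and -0.00 with the equal sum of length-scaled counts. The median over all genes shifted by at most 0.06 in size from the reported scaling. At 5 CPM, 23.8% of all genes were past 1.5-fold downward in KO; Fdps is then not measured. No paired analysis was possible because each genotype has 1 pooled library. Fdps, with 29 and 30 reads, is the member whose depth limits its ratio most.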
